A study of Mus musculus with 27 samples.

Results

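Interferon-stimulated genes were followed in mouse pluripotent cells of 3 lines, undifferentiated and at 2 times of differentiation. The set held 9 genes: Usp18, Ifit1, Ifit3, Rtp4, Xaf1, Isg15, Irf7, Oasl2 and Ifi44. They were chosen by starting from the genes that were highest in undifferentiated cells of the line 19BL, so their high level there is a description and was not tested. A gene was measured through probe sets, groups of short probes on an Affymetrix array, that the array annotation pairs with that gene's symbol alone. By that rule 7 of the 9 genes had 9 probe sets, out of 34945 probe sets for 18193 genes in all. Isg15 has a probe set that it shares with another gene, so no value is given for it, and Ifi44 was not analysed here.

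Interferons are secreted proteins that cells make on sensing viral or other foreign nucleic acid. They bind receptors on the cell surface, the receptor-bound kinases Jak1 and Tyk2 then act, and a complex that holds Stat2 and Irf9 binds the interferon-stimulated response element in target promoters. The target genes encode proteins that block viral replication, present antigen, amplify the signal or end it. Pluripotent stem cells are known for a weak response to interferon that grows as they differentiate.

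The response element was looked for in the promoters because it is the sequence through which this pathway acts on its targets. RefSeq promoters (build GRCm38.p6, 250 bases before to 50 after the transcription start) were at hand for 5 of the 7 measured genes: Ifit1, Ifit3, Xaf1, Irf7 and Oasl2. The element was spelled GAAANNGAAA, with N for any base, and searched on both strands, where the other strand reads TTTCNNTTTC. It stood in 2 of these 5 promoters, against 3.44% of all 32851 promoters in the table and 36.4% of the 132 promoters of the other interferon pathway genes described further on. Ifit1 and Ifit3 each held 2 copies, all read on the strand opposite to the gene. Counted from the start, they began at base -104 and -85 in Ifit1 and at -156 and -122 in Ifit3. With only the bases before the start searched, 2.98% of all promoters and 2 of the 5 held the element. The site of the interferon gamma pathway, spelled TTCNNNGAA, was in 0 of the 5 and in 8.3% of all promoters. The promoters of Ifit1 (chr19:34640639-34640938, plus strand), Ifit3 (chr19:34583279-34583578, plus strand) and Xaf1 (chr11:72301379-72301678, plus strand) are shown because these genes changed together between days 5 and 11 in R1. Capitals mark the element. Xaf1 holds no such letters in this window, which says nothing of the factor.
Ifit1: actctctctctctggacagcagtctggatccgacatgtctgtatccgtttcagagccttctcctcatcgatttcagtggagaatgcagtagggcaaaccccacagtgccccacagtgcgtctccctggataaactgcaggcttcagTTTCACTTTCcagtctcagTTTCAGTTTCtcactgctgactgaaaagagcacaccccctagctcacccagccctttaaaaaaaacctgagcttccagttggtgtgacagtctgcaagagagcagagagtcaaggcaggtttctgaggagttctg
Ifit3: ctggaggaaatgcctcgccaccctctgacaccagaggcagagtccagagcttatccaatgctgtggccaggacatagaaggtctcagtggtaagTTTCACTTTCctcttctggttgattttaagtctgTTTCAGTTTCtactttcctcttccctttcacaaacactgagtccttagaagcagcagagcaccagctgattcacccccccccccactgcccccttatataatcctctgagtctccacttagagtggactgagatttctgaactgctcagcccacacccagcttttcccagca
Xaf1: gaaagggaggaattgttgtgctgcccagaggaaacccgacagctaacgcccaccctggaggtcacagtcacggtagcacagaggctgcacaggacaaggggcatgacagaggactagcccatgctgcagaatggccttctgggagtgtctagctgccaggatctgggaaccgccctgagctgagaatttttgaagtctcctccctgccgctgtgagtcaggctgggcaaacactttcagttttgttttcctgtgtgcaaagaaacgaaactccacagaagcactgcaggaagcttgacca

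R1 is a mouse embryonic stem cell line. H9 is here a mouse induced pluripotent line reprogrammed with 3 transcription factors, and 19BL is one made with 4. Each was sampled undifferentiated (day 0, grown with leukemia inhibitory factor on feeder cells whose division had been stopped with mitomycin) and at day 5 and day 11 of spontaneous differentiation as embryoid bodies, in serum medium without that factor. No group carried a gene deletion or received interferon by the labels, and each line stands for its type alone. The 9 groups held 3 arrays each, labelled as biological replicates, 27 in all. What separated the replicates is not stated, so p-values measure the spread between these samples. Levels are log2 signals made by RMA, a method that corrects background, scales arrays to one another and summarises the probes. Differences are log2 differences with the standard error (SE) of 1 limma fit over all genes and arrays. A gene was called when it passed an adjusted p (Benjamini-Hochberg) of 0.05 and differed 2-fold or more. Since the genes were chosen at day 0, they were tested only in comparisons free of day 0 arrays.

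The labels were set against marker genes. The mean log2 level of 12 pluripotency markers at day 0 was 12.48 in R1, 12.42 in H9 and 12.94 in 19BL, and at day 11 it was 8.02, 7.38 and 10.16. The 16 fibroblast markers, which the feeder cells carry, had a mean level of 8.86 in R1, 10.35 in H9 and 9.44 in 19BL at day 0. Their part in the level of the interferon-stimulated genes was not tested. The RNA quality index, the 3' minus 5' difference of control probe sets for Actb and Gapdh, was highest in 19BL at day 11, at 2.69 ± 0.23 (SD, n = 3), against 1.94 ± 0.20 in R1 and 1.55 ± 0.23 in H9. All 19BL arrays of day 11 were at 2.44 or more, and no other array was above 2.16. A fit with the index as a term therefore cannot tell the index apart from that group. A higher index means less signal at the 5' end than at the 3' end, so poorer RNA by this measure. Values below 5.38 lie in the lowest 40% of all values, where real differences are compressed.

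**Figure D1:**
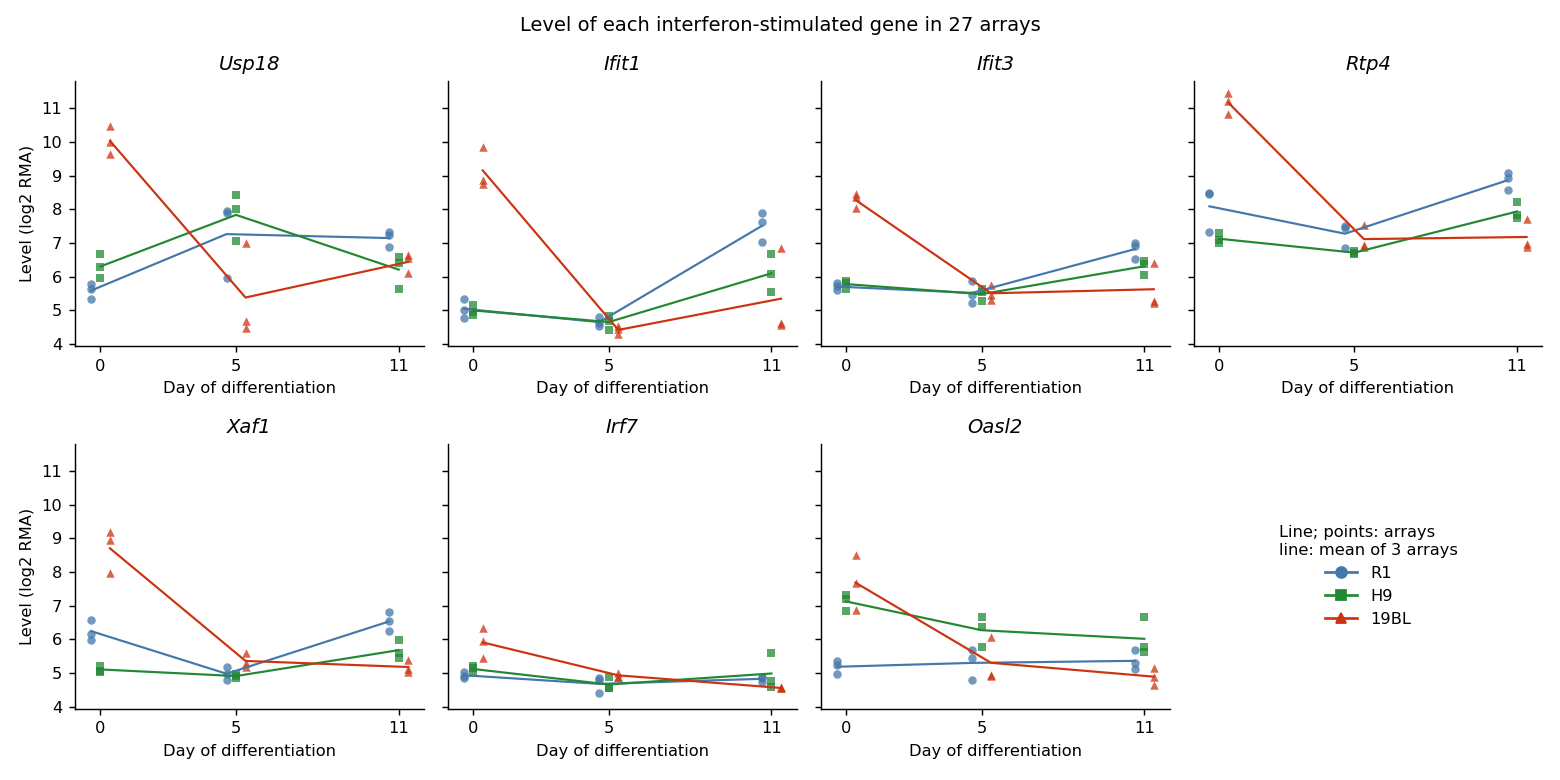
Log2 RMA level (vertical axis) of each of the 7 measured genes by day of differentiation (horizontal axis), with 1 point per array, a line through the mean of 3 arrays, and points of the lines set slightly apart. In each panel the 19BL arrays have the highest mean at day 0, and at day 5 that mean is at most 0.45 above the mean of H9, in Xaf1.

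Ifit1 encodes a protein that binds viral RNA lacking the host's cap marks and blocks its translation. In undifferentiated 19BL it stood at 9.84, 8.75 and 8.87, against 5.02, 5.33 and 4.78 in R1 and 4.96, 5.16 and 4.86 in H9. At day 5 the arrays read 4.79, 4.63 and 4.52 in R1, 4.69, 4.41 and 4.84 in H9, and 4.52, 4.29 and 4.43 in 19BL. At day 11 they read 7.02, 7.61 and 7.90 in R1, 5.54, 6.07 and 6.67 in H9, and 4.61, 4.57 and 6.84 in 19BL. All 3 undifferentiated 19BL arrays were above every other array, R1 at day 11 came next, and H9 at day 11 and 19BL at day 11 overlapped. Of the 27 arrays, 17 lay below 5.38, so a low level of this gene is a level near the floor of the array. Over all 18193 genes, Ifit1 had the largest excess of undifferentiated 19BL over the higher of the other lines, at 4.11.

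Ifit3, a related protein of the same antiviral family and a neighbour of Ifit1 on chromosome 19, had the same order at the top. It read 8.35, 8.45 and 8.03 in undifferentiated 19BL, 5.80, 5.60 and 5.71 in R1, and 5.81, 5.64 and 5.88 in H9. At day 5 every line lay between 5.21 and 5.88. At day 11 the arrays were at 6.53, 6.91 and 7.00 in R1, 6.06, 6.39 and 6.47 in H9, and 5.20, 5.27 and 6.40 in 19BL. The R1 and H9 groups at day 11 did not overlap each other, and replicate 3 of 19BL lay among the H9 arrays.

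Oasl2, an oligoadenylate synthetase-like protein of the antiviral RNA-sensing family, differed from the rest in being high in H9 as well. At day 0 it read 8.50, 7.67 and 6.87 in 19BL, 6.85, 7.32 and 7.20 in H9, and 4.97, 5.35 and 5.23 in R1. The 19BL and H9 ranges overlapped, and R1 lay below both. At day 5 it read 5.44, 5.67 and 4.79 in R1, 6.36, 5.77 and 6.67 in H9, and 4.93, 4.90 and 6.07 in 19BL. At day 11 the values were 5.29, 5.12 and 5.67 in R1, 5.62, 5.77 and 6.65 in H9, and 4.88, 4.65 and 5.13 in 19BL. H9 held the highest mean of the 3 lines at both of these days.

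Rtp4, a receptor transporter protein that is also an interferon-induced antiviral factor, was never below 6.67. At day 0 it read 11.45, 11.21 and 10.82 in 19BL, 7.32, 8.44 and 8.49 in R1, and 7.09, 6.99 and 7.29 in H9. At day 5 the arrays were at 7.45, 7.51 and 6.85 in R1, 6.67, 6.74 and 6.71 in H9, and 6.94, 6.88 and 7.52 in 19BL. At day 11 they were at 8.93, 9.08 and 8.58 in R1, 7.75, 8.23 and 7.82 in H9, and 6.87, 6.96 and 7.70 in 19BL. R1 at day 11 was the second highest group and did not overlap the group below it. A further probe set of Rtp4 was at 3.63 to 4.87 in all 27 arrays, all of them below 5.38, with means at day 0 of 4.28 in 19BL, 4.11 in R1 and 4.00 in H9.

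Xaf1, a factor that promotes cell death by opposing an inhibitor of caspases, read 9.17, 8.96 and 7.97 in undifferentiated 19BL, 6.58, 5.98 and 6.17 in R1, and 5.22, 5.05 and 5.04 in H9. At day 5 it read 4.79, 4.96 and 5.18 in R1, 4.84, 4.97 and 4.91 in H9, and 5.58, 5.30 and 5.19 in 19BL. At day 11 it read 6.23, 6.54 and 6.82 in R1, 5.59, 5.45 and 5.99 in H9, and 5.39, 5.03 and 5.11 in 19BL. Only the undifferentiated 19BL group stood apart from its neighbour in the order of the 9 groups. Its further probe set lay between 4.35 and 5.42, with means of 5.16 in undifferentiated 19BL, 4.86 in R1 and 4.93 in H9.

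Irf7, the transcription factor that amplifies the response by driving interferon genes, was dim, with 23 of 27 arrays below 5.38. It read 6.32, 5.43 and 5.96 in undifferentiated 19BL, 4.86, 4.92 and 5.02 in R1, and 5.16, 4.99 and 5.20 in H9. At days 5 and 11 every array but 1 lay between 4.39 and 5.01, the exception being replicate 1 of H9 at day 11, at 5.60. The groups after undifferentiated 19BL overlapped their neighbours in every case.

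Usp18, the protease that removes Isg15 from proteins and restrains signalling at the interferon receptor, followed another course. At day 0 it read 10.47, 9.99 and 9.64 in 19BL, 5.63, 5.34 and 5.77 in R1, and 6.67, 5.95 and 6.29 in H9. At day 5, where Ifit1 was near the floor in all lines, Usp18 read 7.95, 7.88 and 5.95 in R1, 8.41, 7.07 and 8.02 in H9, and 4.47, 4.67 and 6.99 in 19BL. At day 11 it read 6.86, 7.23 and 7.33 in R1, 5.63, 6.59 and 6.40 in H9, and 6.55, 6.11 and 6.65 in 19BL. R1 and H9 therefore had their highest mean at day 5, and replicate 3 stood apart from the others in R1 and in 19BL at that day, low in the one and high in the other.

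At day 0 the differences between 19BL and R1 ran from 0.98 (Irf7) to 4.45 (Usp18), with a median of 2.57. The groups did not overlap in 7 of 7 genes. The share of all genes without overlap was not counted. By the other measure of a call, 0.643% of all genes were higher and 0.478% lower. Against H9 the differences ran from 0.56 (Oasl2) to 4.16 (Ifit1), with no overlap in 6 of 7. By the measure of a call, 0.885% of all genes were higher and 1.09% lower there. The genes were chosen on these values, so nothing is read from either count. Ranked among all genes by the excess over the higher of the other lines, Ifit1, Usp18 and Rtp4 were 1, 2 and 3, Ifit3 and Xaf1 were 6 and 7, and Irf7 and Oasl2 were 122 and 260. By day 5 the level in 19BL stood below day 0 by a difference of -0.98 (Irf7) to -4.74 (Ifit1), and at day 11 by -1.35 (Irf7) to -3.99 (Rtp4). Within undifferentiated 19BL, replicate 1 was the highest array for 6 of the 7 genes and replicate 3 the lowest for 5. Replicate 1 also held the highest mean level of the fibroblast markers in that group, at 10.02 against 8.99 and 9.30, and of 12 macrophage markers, at 7.83 against 7.15 and 7.09. The part of the macrophages was not tested either. In bulk RNA, fewer cells of a type and less RNA per cell cannot be told apart.

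At day 5 Usp18 was the gene called between 19BL and the other lines. It was lower in 19BL than in H9 by a difference of -2.46 ± 0.52 (SE), 5.49-fold, with no overlap (limma adjusted p = 0.00198), and lower than in R1 by -1.88 ± 0.52, 3.69-fold (adjusted p = 0.0191), where the ranges overlapped. The remaining 6 genes were not called, with differences of -0.23 (Ifit1) to 0.38 (Xaf1) against R1 and -0.97 (Oasl2) to 0.45 (Xaf1) against H9. Among these, the 19BL arrays of Xaf1 and Irf7 lay above all R1 and H9 arrays, but by narrow gaps in the dim range below 5.38. The lowest 19BL array of Xaf1 was at 5.19 and the highest R1 array at 5.18. For Irf7 the lowest 19BL arrays were at 4.89 and the highest H9 array at 4.88. The 19BL arrays of Rtp4, which was not dim, also lay above H9, but overlapped R1. Its lowest 19BL array was at 6.88 and its highest H9 array at 6.74. The share of all genes without overlap was not counted. Thus 0 of 7 genes were higher and 1 lower against R1, where 2.31% of all genes were higher and 3.14% lower, and likewise 0 and 1 against H9, where the shares were 2.91% and 4.57%. The R1 call was lost without replicate 1 or 2 of R1 (adjusted p = 0.0914 and 0.101) and without replicate 1 or 2 of 19BL (0.152 and 0.137). The H9 call was kept, and without replicate 2 of H9 or replicate 3 of 19BL a further gene, Oasl2, was called lower, at -1.22 and -1.36. In H9 against R1, limma called 0 of 7 genes, with 1 (Oasl2, 0.97 ± 0.36) at an unadjusted p under 0.05, and 0.22% of all genes were higher and 0.154% lower. The comparisons of 19BL share their 19BL arrays and are not independent.

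At day 11, 4 of the 7 genes were lower in 19BL than in R1. Ifit1 differed by -2.17 ± 0.41 (4.49-fold, adjusted p = 5.66e-04), Rtp4 by -1.69 ± 0.27 (3.22-fold, adjusted p = 1.32e-04), Xaf1 by -1.36 ± 0.23 (2.56-fold, adjusted p = 1.95e-04) and Ifit3 by -1.19 ± 0.24 (2.28-fold, adjusted p = 8.13e-04) in the limma fit. In these 4 genes all 3 arrays of 19BL lay below all 3 of R1, as they also did in Usp18 and Irf7. How many of all genes were without overlap was not counted. Usp18 at -0.71, Oasl2 at -0.47 and Irf7 at -0.27 were not called. None of the 7 was higher. Over all genes 5.92% were lower and 2.39% higher. Ifit3 dropped below 2-fold without replicate 1 of 19BL, at -0.98. With the probe sets of a gene averaged, Rtp4 (-0.87) and Xaf1 (-0.62) were below 2-fold too. The median of the 7 differences was -1.19, against -0.10 over all genes.

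Several measures moved with this difference. The RNA quality index was highest, so the RNA poorest by this measure, in 19BL at day 11. With the index as a term of the fit, Rtp4 was still called, and Ifit1 stood at -1.20 (adjusted p = 0.181), Ifit3 at -0.92 (0.0959) and Xaf1 at -0.79 (0.103). Since the index cannot be told apart from the 19BL group of day 11, nothing is read from that fit. Of 12 macrophage markers, 8 were lower in 19BL than in R1 and 0 higher, and their mean level was 7.52 to 9.27 in R1, 6.43 to 7.31 in H9 and 6.40 to 6.90 in 19BL. Ptprc, the pan-leukocyte gene, was at 8.22, 8.79 and 5.94 in R1. Replicate 3 of R1 had the lowest mean level of the macrophage markers in its group, at 7.52, and was the highest R1 array for 5 of the 7 genes, with Ifit1 at 7.90 and Ifit3 at 7.00. It was the lowest R1 array for the other 2, Rtp4 at 8.58 and Irf7 at 4.74. Of 16 fibroblast markers 7 were lower in 19BL than in R1, of 8 endothelial markers 4 and of 11 cardiomyocyte markers 7, while of 12 pluripotency markers 9 were higher. Against H9 the same lists gave 8, 4 and 5 lower and 9 higher, and 1 of 12 macrophage markers lower. The part of cell composition in the differences was not tested.

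**Figure D2:**
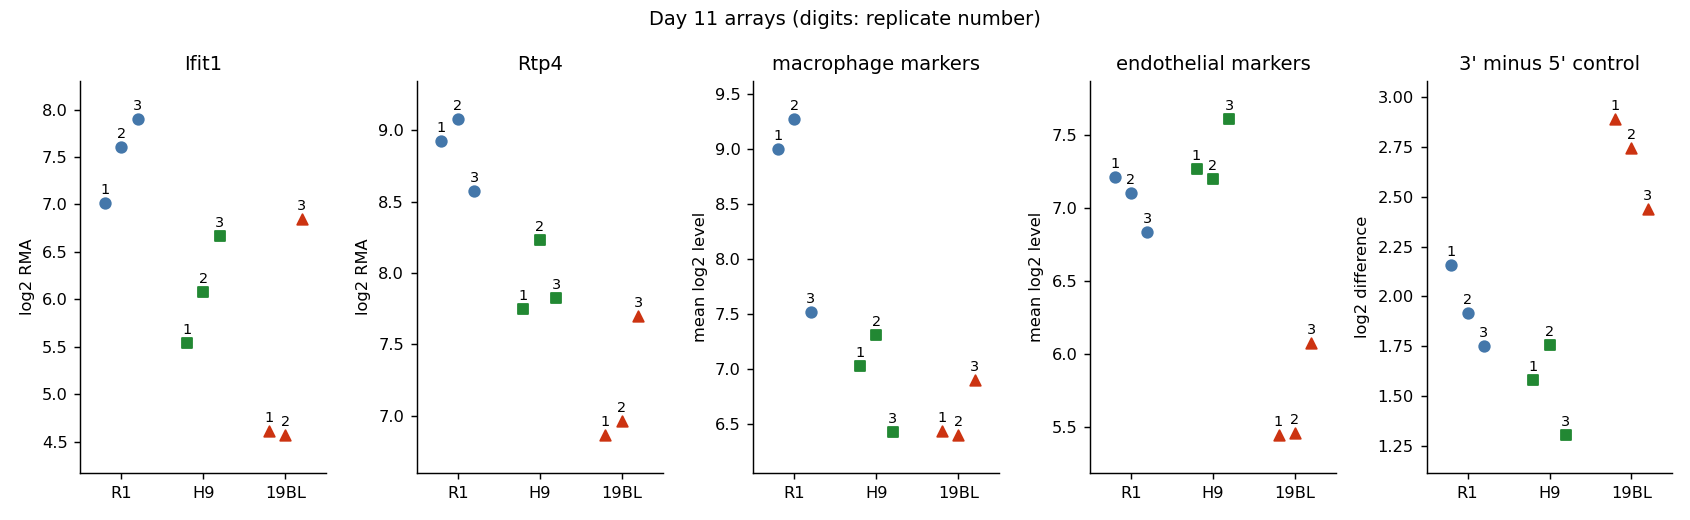
The 9 arrays of day 11, by line (horizontal axis), with the log2 RMA level of Ifit1 and Rtp4, the mean log2 level of 12 macrophage and 8 endothelial markers, and the 3' minus 5' control difference (vertical axes). Digits give the replicate number. R1 replicate 3 is the highest R1 array for Ifit1, at 7.90, and the lowest for Rtp4, at 8.58, and for the macrophage markers, at 7.52. 19BL replicate 3 is the highest of its group in 4 panels and the lowest in the control difference.

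Against H9 at day 11, 1 gene was lower in 19BL, Oasl2, by -1.12 ± 0.36 (2.18-fold, limma adjusted p = 0.0224) with no overlap, and 0 were higher, where 4.91% of all genes were lower and 5.12% higher. This call was lost without replicate 3 of H9 (adjusted p = 0.108), replicate 1 of 19BL (0.0588) or replicate 2 of 19BL (0.084). Without replicate 3 of 19BL, whose Ifit1 of 6.84 stood far above the 4.61 and 4.57 of its group, 4 genes were lower: Ifit1 by -1.51, Ifit3 by -1.07, Rtp4 by -1.02 and Oasl2. In the full fit Ifit1 was at -0.75, Ifit3 at -0.68 and Rtp4 at -0.76. That replicate 3 was the highest array of its group for 6 of the 7 genes. In H9 against R1, limma called 0 of 7 genes, with 4 at an unadjusted p under 0.05, where 0.231% of all genes were higher and 0.786% lower. Ifit1 differed there by -1.41 ± 0.41 (adjusted p = 0.0732), and with the replicate number as a block and only the compared arrays it was called (adjusted p = 0.0385). Rtp4 was called lower without replicate 3 of R1 (-1.07) or replicate 2 of H9 (-1.08), and Ifit1 (-1.70) and Xaf1 (-1.01) without replicate 3 of H9.

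Between day 5 and day 11, 4 of the 7 genes rose in R1 and 0 fell, where 7.1% of all genes rose and 4.53% fell. Ifit1 rose by 2.86 ± 0.41 (7.27-fold, limma adjusted p = 1.70e-05), Rtp4 by 1.59 ± 0.27 (3.01-fold, 1.30e-04), Xaf1 by 1.55 ± 0.23 (2.94-fold, 2.38e-05) and Ifit3 by 1.30 ± 0.24 (2.46-fold, 2.31e-04), each with no overlap between the days. These 4 calls were kept without any single array, and the share of all genes without overlap between the days was not counted. With the probe sets of a gene averaged, Rtp4 (0.76) and Xaf1 (0.81) were below 2-fold. Usp18 (-0.12), Irf7 (0.15) and Oasl2 (0.06) were not called. In the same step 9 of 12 macrophage markers, 11 of 16 fibroblast markers, 4 of 8 endothelial markers and 5 of 11 cardiomyocyte markers rose in R1, and 6 of 12 pluripotency markers fell. Their part in the rise was not tested.

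In H9, Ifit1 rose by 1.45 ± 0.41 (2.73-fold, limma adjusted p = 0.00765) and Rtp4 by 1.22 ± 0.27 (2.34-fold, adjusted p = 0.00104), while Usp18 fell by 1.63 ± 0.52 (3.09-fold, adjusted p = 0.017). Ifit3 at 0.83 and Xaf1 at 0.77 were below 2-fold, with adjusted p of 0.00769 and 0.0107. That is 2 of 7 up and 1 down, where 6.16% of all genes rose and 10.8% fell. With the probe sets of a gene averaged, Rtp4 (0.78) was below 2-fold in H9. With the RNA quality index in the fit, Rtp4 (0.97) was below 2-fold and Xaf1 (1.11) was called. The Usp18 call was lost without replicate 1 or 3 of day 5 (adjusted p = 0.0872 and 0.0564) or replicate 1 of day 11 (0.0883). In 19BL limma called 0 of 7 genes, with 1 at an unadjusted p under 0.05, where 6.66% of all genes rose and 9.16% fell. Ifit1 there stood at 0.93 ± 0.41 and Usp18 at 1.06 ± 0.52. Ifit1 was called higher without replicate 1 or 2 of day 11 (1.29 and 1.31), and Usp18 without replicate 3 of day 5 (1.87). With the RNA quality index in the fit, Ifit1 was called higher in 19BL at 2.305 (limma adjusted p = 0.017). That index cannot be told apart from the 19BL group of day 11. Replicates 1 and 2 of that group were at 4.61 and 4.57 for Ifit1, against 4.29 to 4.52 in 19BL at day 5.

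**Figure D3:**
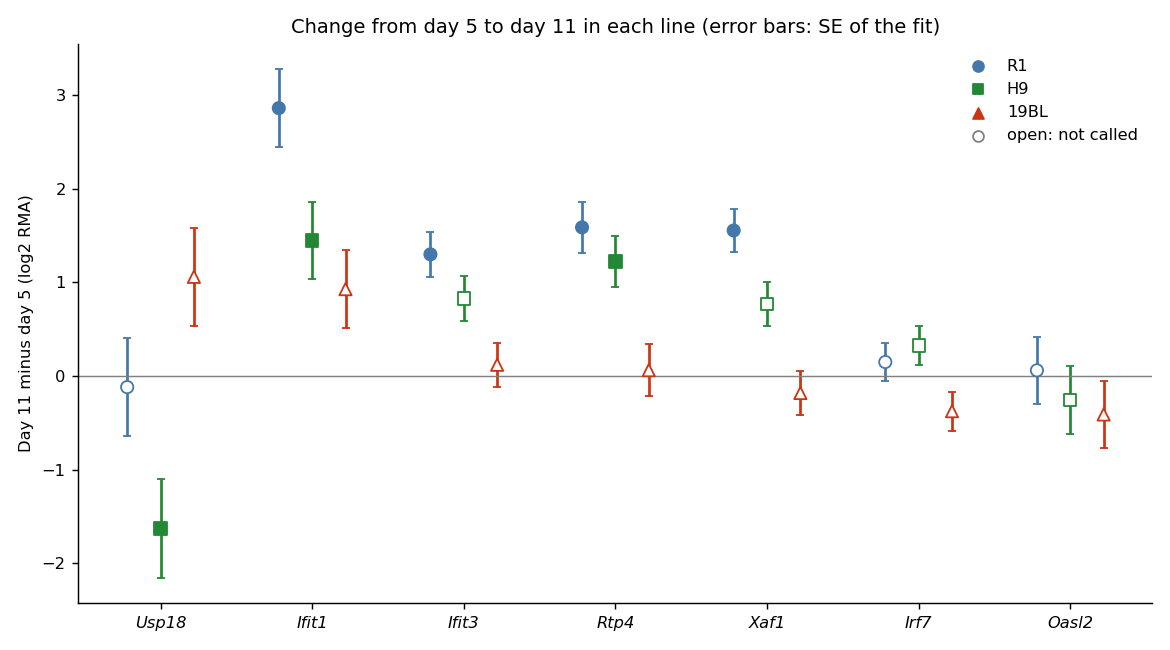
Log2 change from day 5 to day 11 (vertical axis) of each gene (horizontal axis) in the 3 lines, with the SE of the limma fit as error bars. Filled symbols were called (adjusted p under 0.05 and at least 2-fold): 4 genes in R1, 3 in H9 and 0 in 19BL.

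The differences between these changes were tested directly. From day 5 to day 11, the change of Xaf1 in 19BL minus that in R1 was -1.74 ± 0.33 (limma adjusted p = 0.00215), that of Rtp4 -1.53 ± 0.39 (0.015), that of Ifit3 -1.18 ± 0.34 (0.0274) and that of Ifit1 -1.93 ± 0.58 (0.0373). So 4 of 7 genes had a lower signed change and 0 a higher one, where 4.79% of all genes had a lower change and 1.92% a higher one. Leaving out 1 array at a time, Ifit1 lost the call in 10 of 12 fits and Ifit3 in 7: 2 genes remained called without replicate 1 or 3 of R1 at day 5, replicate 2 or 3 of R1 at day 11, replicate 1 of 19BL at day 5 or replicate 2 of 19BL at day 11, and 1, Xaf1, without replicate 1 of 19BL at day 11. With the RNA quality index in the fit, Ifit1 (-0.92, adjusted p = 0.457), Ifit3 (-0.90, 0.213) and Xaf1 (-1.14, 0.0657) lost the call. With only the compared arrays Ifit1 and Ifit3 lost it (adjusted p = 0.0983 for both), and with probe sets averaged Rtp4 (-0.84) and Xaf1 (-0.83) were below 2-fold. Against H9, Usp18 moved the other way: it fell in H9 and stood at 1.06 in 19BL, not called, a signed difference of 2.69 ± 0.74 (limma adjusted p = 0.0223). That was 1 of 7 higher and 0 lower, where the shares were 3.84% and 3.28%. It lost the call with the RNA quality index (2.21, adjusted p = 0.0964) and with only the compared arrays (0.0869). Without replicate 1 or 3 of H9 at day 5, replicate 1 of H9 at day 11, or replicate 1 or 2 of 19BL at day 5 it was 0 of 7, without replicate 2 or 3 of H9 at day 11 it was 2, and without replicate 3 of 19BL at day 11 it was 4, 1 higher and 3 lower. Between H9 and R1 limma called 0 of 7 genes, with 2 at an unadjusted p under 0.05, where 0.0275% of all genes were higher and 0.11% lower.

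The other genes of the pathway were taken from lists of ligands, receptors, signal transducers, nucleic acid sensors, antiviral effectors, the Isg15 conjugation system, brakes on signalling, interferon-inducible GTPases that act on intracellular parasites, antigen presentation and chemokines. Of 144 genes listed, 119 were measured. Their theme was taken from the day 0 pattern, so at day 0 they do not support it independently. In undifferentiated 19BL, 12 of 119 were higher than in R1 and 3 lower, where 0.643% of all genes were higher and 0.478% lower, and 13 of 119 were higher than in H9 and 0 lower, where the shares were 0.885% and 1.09%. The median difference of the 119 genes was 0.22 against R1 and 0.13 against H9, and that of all genes was -0.01 in both. Leaving out replicate 1 of 19BL left 6 called against R1 (5 higher and 1 lower) and 8 against H9, and leaving out replicate 3 of R1 left 9.

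No ligand was called at day 0. Ifnb1, interferon beta, read 4.95, 5.39 and 4.99 in undifferentiated 19BL, 5.03, 5.10 and 5.06 in R1, and 5.01, 5.26 and 4.91 in H9, all dim, and its differences were 0.04 and 0.05. The receptor chains were level as well, with Ifnar1 at -0.31 against R1 and -0.01 against H9 and Ifnar2 at 0.22 and -0.09. Of the kinases, Jak1 was at 0.18 and -0.60 and Tyk2 at 0.26 and -0.12, none called. Stat2 stood at 0.41 and 0.45 with adjusted p of 0.196 and 0.0961 in limma.

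Irf9, the DNA-binding part of the complex, was called in both comparisons. It read 8.99, 8.86 and 8.49 in undifferentiated 19BL, 7.48, 7.34 and 7.23 in R1, and 7.26, 6.96 and 7.13 in H9, so the 19BL arrays lay apart. The difference was 1.43 ± 0.21 against R1 (limma adjusted p = 2.26e-04) and 1.66 ± 0.21 against H9 (adjusted p = 3.42e-05), and both calls were kept without any single array.

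Oas2, a synthetase that activates RNA cleavage in infected cells, was higher by 1.50 against R1 and 1.67 against H9, and Samd9l, a growth-restraining antiviral protein, by 1.43 and 1.39, each kept without any single array. Oas1a read 11.53, 11.44 and 10.64 in 19BL, 10.05, 10.63 and 9.82 in R1, and 9.08, 8.50 and 8.29 in H9, and was higher than in H9 by 2.58 ± 0.23 (limma adjusted p = 5.20e-07) and than in R1 by 1.04, a call kept in 2 of 6 fits with an array left out. Ifi204, a sensor of DNA, was higher by 2.28 and 1.39. Ifih1, the sensor of long double-stranded RNA, read 9.41, 8.59 and 8.41 in 19BL, and its 1.82 ± 0.49 above H9 (adjusted p = 0.0358) was lost whichever array was left out. Irgm2, a GTPase, was at 9.33, 8.72 and 8.57 in 19BL, 6.85, 7.35 and 7.21 in R1, and 7.06, 6.68 and 7.03 in H9, with differences of 1.74 and 1.95. The first of these 2 calls was kept in 2 of 6 fits with an array left out and the second in 6 of 6. The 3 genes lower than in R1 were Psmb8 (-1.32), Aim2 (-1.02) and Ifitm1. With an array left out, these calls were kept in 1, 4 and 6 of 6 fits, in that order.

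**Figure D4:**
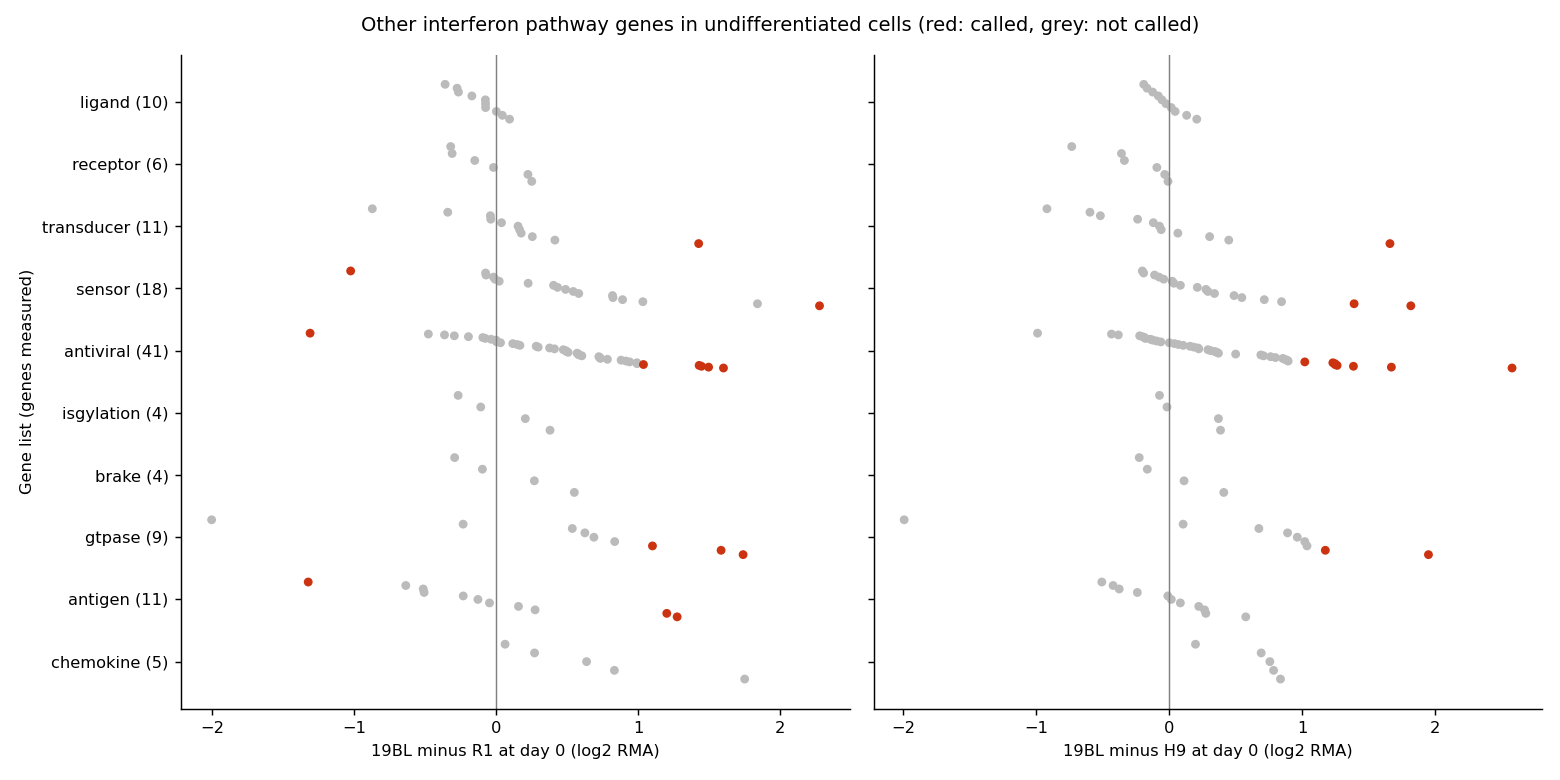
Log2 difference at day 0 (horizontal axes) of 119 other interferon pathway genes, 19BL minus R1 (left) and 19BL minus H9 (right), by gene list (vertical axis, number of genes measured in brackets, genes ordered by value within a list). Red points were called and grey points were not; no ligand or receptor is red, and 13 genes are red on the right, all above 0.

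Between H9 and R1 at day 0, 3 of 119 were higher and 2 lower, where 2.21% of all genes were higher and 0.879% lower. Oas1a was lower in H9 by -1.54, the call of these that was kept without any single array. Without replicate 1 of R1 the count was 12, without replicate 2 or 3 of R1 it was 1 and 3, and without replicate 1 or 3 of H9 it was 2 and 1.

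From day 0 to day 5 some of the pathway genes fell in each line. In R1 1 rose and 24 fell of 119, where 6.62% of all genes rose and 8.1% fell. In H9 1 rose and 22 fell, against 5.04% and 7.4%, and in 19BL 1 rose and 32 fell, against 2.25% and 4.82%. Most did not pass, and the median change was -0.07 in R1, -0.07 in H9 and -0.29 in 19BL. The theme of these genes was taken from high levels in undifferentiated 19BL. The count, median and sizes of the falls in 19BL start from those arrays, so they do not support the theme independently. No ligand was called, while of 41 antiviral effectors 13, 13 and 18 fell. Ifi27, a mitochondrial protein induced by interferon, changed by -3.37 in R1, -4.09 in H9 and -4.47 in 19BL. Ccl2, a chemokine that attracts monocytes, changed by -3.06, -2.81 and -5.07, and Ddx58, the sensor RIG-I, by -2.57, -3.42 and -2.56. B2m, the light chain of class I molecules, changed by -1.15 in R1, -2.18 in H9 and -2.78 in 19BL. Irf9 fell by 1.84 in 19BL, and was at -0.40 in R1 and -0.06 in H9, not called; this difference between lines was not tested. Of 16 fibroblast markers 7 fell and 3 rose in R1, 9 fell and 1 rose in H9, and 12 fell in 19BL. Of 12 macrophage markers 3, 4 and 5 fell and 1 rose in each line, and of 12 pluripotency markers 11, 11 and 9 fell. The part of these in the falls was not tested.

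At day 5, 5 of 119 were higher and 4 lower in 19BL than in R1, where 2.31% of all genes were higher and 3.14% lower. Against H9 6 were higher and 6 lower, where the shares were 2.91% and 4.57%. Tor3a was higher in 19BL by 1.66 and 1.65, Pml, a nuclear body protein, by 1.40 and 1.57, and Irf8 by 1.57 and 1.50, while the kinase Jak2 was lower, at -1.51 and -1.71. Without replicate 2 of R1, replicate 1 of 19BL or replicate 2 of 19BL the count against R1 was 5 in each case. In H9 against R1 limma called 0 of 119, with 16 at an unadjusted p under 0.05, where 0.22% of all genes were higher and 0.154% lower.

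At day 11, 26 of 119 genes were lower in 19BL than in R1 and 2 higher, where 5.92% of all genes were lower and 2.39% higher. Against H9 21 were lower and 3 higher, where the shares were 4.91% and 5.12%. No ligand, sensor or brake was lower in either comparison. The medians over the 119 genes were -0.32 and -0.29, where all genes had -0.10 and -0.12. Among 9 GTPases 7 were lower than in R1 and 5 lower than in H9. Irgm2 read 6.30, 6.52 and 7.13 in 19BL against 8.67, 8.91 and 9.54 in R1, a difference of -2.39 (limma adjusted p = 1.89e-04), and Iigp1 read 5.51, 5.37 and 6.82 against 7.91, 8.18 and 8.13, a difference of -2.18. Among 41 antiviral effectors 12 were lower than in R1 and 1 higher. Ifitm3, which blocks viral entry, was at -2.12 against R1 and -2.16 against H9, Lgals3bp at -2.08 and -2.36, and Ly6e at -2.20 and -2.00. Psme1, of the immunoproteasome activator, was at -1.46 and -1.22. Ifnar1 was lower than in R1 by -1.20, a call kept without any single array, and Irf8 by -2.87, while the shared factors Irf9 (-0.42 and -0.19) and Stat2 (-0.39 and -0.36) were not called. With the RNA quality index in the fit, 7 of 119 were called against H9 where 24 were without it. In H9 against R1, 1 gene was called, Irf8 (-1.77), where 0.231% of all genes were higher and 0.786% lower, with 3 called without replicate 3 of R1, 4 without replicate 1 of H9, 6 without replicate 2 of H9 and 3 without replicate 3 of H9.

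From day 5 to day 11, 17 of 119 rose and 3 fell in R1, where 7.1% of all genes rose and 4.53% fell. In H9 13 rose and 7 fell, against 6.16% and 10.8%, and in 19BL 10 rose and 22 fell, against 6.66% and 9.16%. Ifi27 rose by 3.28 in R1, 2.52 in H9 and 1.39 in 19BL, and Slfn2 by 2.51, 2.24 and 1.12. Iigp1 rose by 2.58 in R1 and 1.94 in H9. Irf8, a transcription factor of myeloid cells, rose by 3.34 in R1 and 1.49 in H9 and fell by 1.10 in 19BL. In 19BL the falls included 8 of 11 antigen presentation genes, among them Psmb10, an immunoproteasome subunit, by 2.31. Psmb10 fell by 1.52 in H9 too. The median change of the 119 genes in 19BL was -0.10, and that of all genes -0.15. The split in 19BL became 12 higher and 11 lower with cyclic loess scaling, which moved the median of all genes by 0.13, and that in H9 became 12 and 10 with median centring or 16 and 5 with cyclic loess.

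The signed change over these days was lower in 19BL than in R1 for 19 of 119 genes and higher for 1, where 4.79% of all genes were lower and 1.92% higher. Against H9 it was lower for 11 and higher for 2, where the shares were 3.28% and 3.84%. A lower signed change can be a smaller rise or a larger fall: Tor3a, lower against R1 by -1.18, fell by 2.18 in 19BL. With the RNA quality index in the fit the count against R1 was 10. Irf8 was lower by -4.44 and -2.60, Irgm2 by -2.55 and -2.23, and Ly6e by -2.61 and -2.25, each kept without any single array. Against H9 the count was 8 without replicate 3 of H9 at day 5 or replicate 1 of 19BL at day 11. Between H9 and R1 1 gene was called, Irf8 (-1.84), where 0.11% of all genes were lower, kept in 5 of 12 fits with an array left out.

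Genes with a course like that of the set were looked for among all other genes, by Pearson correlation over the 9 group means with the mean of the 7 genes, each centred. The 9 points share arrays of a line and day, and no test was made. The 10 nearest were Ifih1 (r = 0.99), Irf9 (0.97), Lcn2 (0.94), Mndal (0.93), Mras (0.93), Eif2ak2 (0.93), 9330159F19Rik (0.92), Ddx60 (0.92), Cxcl3 (0.91) and Oas2 (0.91). Of these, 4 were in the pathway lists, which held 119 of all 18193 genes. Over the 27 arrays 8 of the 10 were again among the 10 nearest, while 9330159F19Rik, which moved only between 4.19 and 4.44, had r = 0.35. Lcn2, an iron-carrier protein of the acute phase, stood at 6.16 in undifferentiated 19BL and at 4.39 to 4.55 in the other groups, and Cxcl3, a chemokine that attracts neutrophils, at 6.82 there and at 3.55 to 4.01 elsewhere. Of the set itself Ifit3 lay closest to the shared course (r = 0.98) and Oasl2 farthest (0.69), with Usp18 at 0.83. Each of these genes is part of the mean it was compared with, which raises its r.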

How the data were processed

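Values were log2 signals that the authors made with RMA, per the submitters' processing notes, and deposited as 1 table of 45101 probe sets for 27 arrays; the RMA version is not given in the sources used here. Array medians were 5.91 to 6.10, no pair of arrays was identical, and 3 arrays per group limit the precision. Of the probe sets, 34945 had 1 gene symbol, 932 several and 9160 none, and 64 were controls. The brightest probe set stood for each gene, with no filter on dim genes (18193 genes). Python 3.11.15, numpy 2.4.6, pandas 2.3.3, R 4.3.3 and limma 3.58.1 were used, and 1 limma fit over 9 groups gave all contrasts, with Benjamini-Hochberg adjustment over all genes. Tested on simulated data, the fit recovered its sets of changed genes.

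The genes and lists were chosen with earlier results of these data known. Named genes were the set itself, up to 4 called genes of the largest change per list and comparison, the core signalling genes, and the 10 genes nearest in course. Alternatives were other scalings, probe set choices, fits, thresholds, array weights, covariates and arrays left out. The replicate block with only the compared arrays was added after seeing the data. Same-numbered arrays deviated together (all 3 correlations over 0.1) in 3 of 15 comparisons: 19BL against R1 at day 0, H9 against R1 at day 11, and day 11 against day 5 in 19BL. The labels state no pairing.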

Additional observations from a re-analysis of the deposited data

Results flagged for a closer look

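The change between day 5 and day 11 was called different for 4 of the 7 genes in 19BL against R1 and for 1 in 19BL against H9, in the limma fit. Of all genes, 4.79% were lower and 1.92% higher against R1, and 3.28% and 3.84% against H9. The 2 comparisons share the 19BL arrays, and H9 against R1 gave 0. With 1 array left out the counts ran from 1 to 4 against R1 and from 0 to 4 against H9. Compared with R1, the change in 19BL differed by -1.93 for Ifit1, -1.18 for Ifit3, -1.53 for Rtp4 and -1.74 for Xaf1. Compared with H9, the change of Usp18 differed by 2.69, with opposite signs in the 2 lines. With the RNA quality index as a covariate Ifit1 (adjusted p = 0.457), Ifit3 (0.213), Xaf1 (0.0657) and Usp18 (0.0964) lost the call, and with only the compared arrays Ifit1, Ifit3 and Usp18 did. The index cannot be told apart from the 19BL group of day 11. Groups of 3 arrays are too small for a test of single outlying arrays.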

How the results depend on the processing

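Over all alternatives the 7 genes gave 1974 values, of which 1853 stayed called or stayed not called, 73 lost the call, 48 gained one and 0 reversed. The direction was compared only where the main or the alternative value was called, so a value called in neither may have changed sign. Of the counts of called genes, 154 of 192 for the 7 genes and 240 of 282 for the other pathway genes stayed within 1.5 times, and with 1 array left out 59 of 90 and 102 of 126. The values outside that range follow, the cause of which was not tested. Dim genes lie near the array's floor, which limits what a low level shows.

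For the 7 genes: 19BL against R1 at day 5 gave 1, and 0 to 1 with 1 array left out. It gave 0 with only the compared arrays, only the arrays of days 5 and 11, the replicate block on the compared arrays and an adjusted p under 0.01. 19BL against H9 at day 5 gave 1, and 1 to 2 with 1 array left out. It gave 2 with quantile normalization, array weights and replicate 3 left out of all groups. H9 against R1 at day 5 gave 0, and 0 to 0 with 1 array left out. 19BL against R1 at day 11 gave 4, and 3 to 4 with 1 array left out. It gave 2 with probe sets of a gene averaged and 1 with the RNA quality index as covariate. 19BL against H9 at day 11 gave 1, and 0 to 4 with 1 array left out. It gave 0 with cyclic loess, only the compared arrays, the RNA quality index as covariate and an adjusted p under 0.01, 4 with array weights, 2 with replicate 3 left out of all groups and 3 with no minimum fold. H9 against R1 at day 11 gave 0, and 0 to 2 with 1 array left out. It gave 1 with the replicate block on the compared arrays and 2 with the RNA quality index as covariate and replicate 3 left out of all groups. Day 11 against day 5 in R1 gave 4, and 4 to 4 with 1 array left out. It gave 2 with probe sets of a gene averaged. Day 11 against day 5 in H9 gave 3, and 2 to 3 with 1 array left out. It gave 5 with no minimum fold. Day 11 against day 5 in 19BL gave 0, and 0 to 1 with 1 array left out. It gave 1 with array weights, the RNA quality index as covariate and replicate 3 left out of all groups. Change from day 5 to day 11, 19BL against R1 gave 4, and 1 to 4 with 1 array left out. It gave 2 with probe sets of a gene averaged, only the compared arrays, only the arrays of days 5 and 11 and the replicate block on the compared arrays and 1 with the RNA quality index as covariate and an adjusted p under 0.01. Change from day 5 to day 11, 19BL against H9 gave 1, and 0 to 4 with 1 array left out. It gave 2 with quantile normalization, dim genes left out and replicate 3 left out of all groups, 0 with only the compared arrays, only the arrays of days 5 and 11, the replicate block on the compared arrays and an adjusted p under 0.01 and 4 with array weights. Change from day 5 to day 11, H9 against R1 gave 0, and 0 to 0 with 1 array left out. With quantile scaling the change in 19BL against H9 split into 1 higher and 1 lower.

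For the other pathway genes: 19BL against R1 at day 0 gave 15, and 6 to 18 with 1 array left out. It gave 6 with only the compared arrays and 7 with an adjusted p under 0.01. 19BL against H9 at day 0 gave 13, and 8 to 13 with 1 array left out. It gave 23 with no minimum fold. H9 against R1 at day 0 gave 5, and 1 to 12 with 1 array left out. It gave 3 with only the compared arrays, 10 with array weights, 1 with the RNA quality index as covariate, replicate 3 left out of all groups and an adjusted p under 0.01 and 11 with no minimum fold. 19BL against R1 at day 5 gave 9, and 5 to 13 with 1 array left out. It gave 4 with probe sets of a gene averaged and an adjusted p under 0.01, 16 with replicate 3 left out of all groups and 14 with no minimum fold. 19BL against H9 at day 5 gave 12, and 10 to 15 with 1 array left out. It gave 23 with no minimum fold. H9 against R1 at day 5 gave 0, and 0 to 0 with 1 array left out. It gave 3 with only the compared arrays, array weights and the replicate block on the compared arrays and 1 with the RNA quality index as covariate and replicate 3 left out of all groups. 19BL against R1 at day 11 gave 28, and 25 to 33 with 1 array left out. 19BL against H9 at day 11 gave 24, and 17 to 30 with 1 array left out. It gave 8 with only the compared arrays, 7 with the RNA quality index as covariate and 49 with no minimum fold. H9 against R1 at day 11 gave 1, and 1 to 6 with 1 array left out. It gave 3 with cyclic loess, quantile normalization and array weights, 0 with only the compared arrays, 4 with the RNA quality index as covariate and replicate 3 left out of all groups and 5 with no minimum fold. Day 5 against day 0 in R1 gave 25, and 21 to 29 with 1 array left out. It gave 45 with no minimum fold. Day 5 against day 0 in H9 gave 23, and 20 to 22 with 1 array left out. Day 5 against day 0 in 19BL gave 33, and 28 to 36 with 1 array left out. Day 11 against day 5 in R1 gave 20, and 16 to 23 with 1 array left out. It gave 36 with no minimum fold. Day 11 against day 5 in H9 gave 20, and 19 to 25 with 1 array left out. It gave 53 with no minimum fold. Day 11 against day 5 in 19BL gave 32, and 29 to 32 with 1 array left out. Change from day 5 to day 11, 19BL against R1 gave 20, and 17 to 22 with 1 array left out. It gave 10 with the RNA quality index as covariate and 12 with an adjusted p under 0.01. Change from day 5 to day 11, 19BL against H9 gave 13, and 8 to 17 with 1 array left out. It gave 5 with only the compared arrays, 21 with array weights and 4 with an adjusted p under 0.01. Change from day 5 to day 11, H9 against R1 gave 1, and 0 to 1 with 1 array left out. It gave 0 with only the compared arrays, only the arrays of days 5 and 11, the replicate block, the replicate block on the compared arrays and an adjusted p under 0.01. At day 0 the split of 19BL against R1 was 14 higher and 1 lower with median centring and 10 and 1 with quantile scaling, and that of H9 against R1 at day 11 was 2 and 1 with cyclic loess or quantile scaling. The replicate block over all arrays moved no other count of calls by over 1.5 times.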
